A study of Mus musculus with 10 samples.

Results

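Preadipocyte and mesenchymal progenitor markers are the genes by which fibroblast-like precursors of fat cells are recognised. The 10 genes described here were Pdgfra, Pdgfrb, Ly6a, Cd34 and Thy1, which encode surface proteins, and Gata2, Gata3, Twist1, Twist2 and Prrx1, which encode transcription factors. They were found by their symbol in both RNA tables, where 22835 gene names are listed. Their symbols cover 15 of 29082 transcript rows, and for each symbol the row with the highest mean RPKM (reads per kilobase of transcript, corrected for sequencing depth) was used. In each line 9 of the 10 genes reached 1 RPKM in at least 1 library, and Gata3 did not.

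Progenitors of fat cells lie in the stroma of adipose tissue and are sorted by surface proteins such as the PDGF receptor alpha, Sca-1 (the product of Ly6a) and CD34. PDGF receptors are receptor tyrosine kinases that drive growth of mesenchymal cells when PDGF dimers bind them. Factors of the GATA, Twist and Prrx families are active in mesenchyme, and in mouse preadipocyte cultures GATA2 and GATA3 are known to restrain adipogenesis. As precursors turn into adipocytes, many of these genes are known to decline while the adipocyte programme starts.

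The study addressed how a histone H3.3 with lysine 4 replaced by methionine, and the loss of the H3K4 methyltransferases MLL3 and MLL4, act on adipogenesis. The cells were brown preadipocytes from interscapular brown fat of newborn mice, immortalised with SV40 large T antigen. The LSL-K4M;CreER line carries a Cre-inducible H3.3K4M, and the Mll3f/f;Mll4SETf/f;CreER line carries floxed Mll3 and a floxed SET domain of Mll4; all cultures, mock ones too, carried the tamoxifen-activated CreER recombinase and the large T antigen. Each line was given either 4-hydroxytamoxifen (4OHT) or mock treatment, with adipogenesis induced by insulin, T3, IBMX, dexamethasone and indomethacin. The 4 RNA libraries, 1 for each line and treatment, carry a stage label of mature adipocytes at day 7. The titles of both 4OHT libraries give day 0 instead; the file headers give day 7, which was used here. If the titles hold, every ratio of 4OHT to mock compares day 0 with day 7. No 4OHT culture without a floxed or lox-stop-lox allele was among the samples, so effects of the drug, of CreER, of the allele and, if the titles hold, of the day cannot be told apart. The labels do not say whether a line is 1 clone or several.

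The LSL-K4M libraries held 15209607 (mock) and 16719658 (4OHT) reads over 1 transcript per gene, and the Mll3/4SET libraries 15420521 and 15350730. With 1 library per group there was no replicate check and no test. A gene counted as measured where its higher library reached 1 RPKM, and as called where log2(RPKM + 1), a scale that understates differences of low genes, differed by at least 2-fold. Ratios are ratios of RPKM, 4OHT to mock, and the intervals beside them are exact 95% intervals that cover counting error of the reads only. The stage label was set beside 8 adipocyte markers, whose summed level was 6395 (mock) and 1752 RPKM (4OHT) for LSL-K4M, and 7186 and 74.6 RPKM for Mll3/4SET. The Mll3/4SET 4OHT library thus carried the mature adipocyte label with adipocyte markers far below those of the other libraries. These sums cannot decide between day 0 and day 7 for the 4OHT libraries, since low markers could come with either. In a culture of mixed cells, fewer cells of a type and less RNA per cell cannot be told apart.

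The measured transcription factors were higher with 4OHT in both lines, and the surface genes went both ways. Their 4 ratios ranged from 1.67-fold to 3.35-fold over the lines, and Gata2 passed the 2-fold limit in both. Of the 5 surface genes, Pdgfrb was at higher levels in both lines, while Pdgfra and Ly6a fell in Mll3/4SET. In LSL-K4M 2 of 9 measured members rose and none fell, against 5.26% of all 12179 measured genes called higher and 6.19% called lower. In Mll3/4SET 1 of 9 rose and 2 fell, against 5.18% called higher and 7.41% called lower of 12184 genes. Calls in either direction made up 11.5% and 12.6% of all genes. The median log2 difference of the measured members was 0.70 in LSL-K4M cells and 0.82 in Mll3/4SET, and that of all genes was 0.10 and 0.12. With a filter at 5 RPKM, which leaves out Cd34 in LSL-K4M and Gata2 in Mll3/4SET, the members' medians were 0.78 and 0.24. In Mll3/4SET 5 members lay above 0 and 4 below, so that 1 gene moves the median far. Scaling each pair of libraries to its median gene lowered the measured members' log2 differences by 0.081 to 0.10 in LSL-K4M cells and by 0.10 to 0.12 in Mll3/4SET, and no member changed its direction or lost its call by it. It moved the share of lower calls among all calls from 54.1% to 63.8% in LSL-K4M cells and from 58.9% to 68.6% in Mll3/4SET.

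Summed over the 5 factors, the level was 102.0 RPKM in the LSL-K4M mock library and 216.4 with 4OHT, and 117.0 and 214.6 RPKM in Mll3/4SET. Summed over the 5 surface genes, it was 430.4 and 383.7 RPKM in LSL-K4M cells, and 457.3 and 241.2 RPKM in Mll3/4SET. Ly6a was the largest part of the surface sum in each of the 4 libraries, and Prrx1 of the factor sum.

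**Figure D1:**
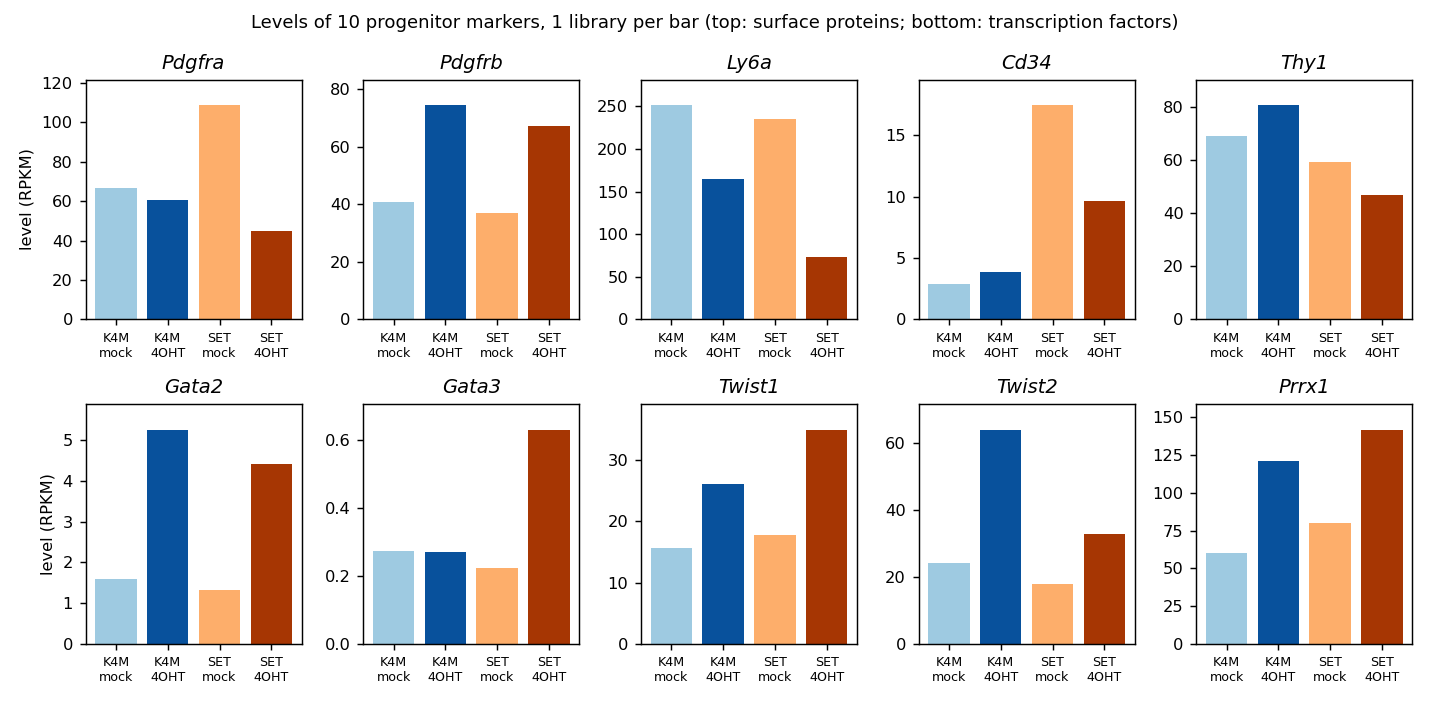
Level of each of the 10 genes in RPKM (vertical axis, from 0, scaled per gene) in the 4 libraries (K4M, LSL-K4M line; SET, Mll3/4SET line), with 1 bar per library and no error bars since each group holds 1 library. Gata2, Twist1, Twist2, Prrx1 and Pdgfrb are higher in both 4OHT libraries than in both mock libraries, and Ly6a and Pdgfra are lower in both.

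Both 4OHT libraries lay above both mock libraries for 5 of the 9 measured members and below them for Pdgfra and Ly6a. Over the 11830 genes measured in both lines these shares were 37.6% above and 21.9% below, so 2 of 9 below is near the background, and 5 of 9 above is a description only. The 2 tables were normalized separately, which bears on every level set across the lines. Cd34 and Thy1 overlapped between treatments.

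Gata2 encodes a zinc finger factor of blood, endothelial and preadipose cells. It was at 1.60 RPKM in the LSL-K4M mock library and 5.25 with 4OHT, and at 1.32 and 4.41 RPKM in Mll3/4SET. Both mock libraries were thus near the limit of 1 RPKM, and both 4OHT libraries were above them. The ratios were 3.28-fold (2.65 to 4.09) in LSL-K4M cells and 3.35-fold (2.65 to 4.26) in Mll3/4SET, on 112 and 392 reads and on 95 and 310 reads. Even so, with 4OHT Gata2 stood at percentiles 30.6 and 26.1 of the genes that reached 1 RPKM.

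Gata3, its close relative, was at 0.274 and 0.270 RPKM in LSL-K4M on 19 and 20 reads, and at 0.224 and 0.631 RPKM in Mll3/4SET on 16 and 44 reads. It lay below 1 RPKM in every library and was not entered in the counts. The ratio was 0.987 (0.500 to 1.95) in LSL-K4M cells and 2.82 (1.56 to 5.36) in Mll3/4SET. Gata2 was 5.84 times (3.57 to 10.1) as high as Gata3 in LSL-K4M mock and 19.4 times (12.4 to 32.2) with 4OHT, and 5.89 (3.44 to 10.7) and 6.98 times (5.08 to 9.81) in Mll3/4SET.

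Twist2, a basic helix-loop-helix factor of mesenchyme and dermis, was at 24.0 RPKM in the LSL-K4M mock library and 64.0 with 4OHT, and at 17.8 and 32.7 RPKM in Mll3/4SET. It rose 2.66-fold (2.44 to 2.91) in LSL-K4M cells, and its ratio in Mll3/4SET was 1.84 (1.65 to 2.05), under the limit. Twist1, its paralogue with a like role in the mesoderm, was at 15.6 and 26.1 RPKM in LSL-K4M cells and at 17.7 and 35.0 RPKM in Mll3/4SET. Its ratios were 1.67, on 550 and 978 reads, and 1.97 (1.79 to 2.17), both under the limit.

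Per length, Twist2 was 1.54 times (1.37 to 1.72) the level of Twist1 in LSL-K4M mock and 2.45 times (2.27 to 2.65) with 4OHT. In Mll3/4SET the ratio was 1.00 (0.893 to 1.13) in mock and 0.937 (0.859 to 1.02) with 4OHT, so the paralogues were at like levels there.

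Prrx1, a paired-type homeobox factor of limb and connective tissue mesenchyme, was the most abundant of the factors. It was at 60.4 RPKM in the LSL-K4M mock library and 120.9 with 4OHT, and at 80.0 and 141.8 RPKM in Mll3/4SET, where it had the highest level of all 10 genes with 4OHT. The ratios of RPKM were 2.00 (1.94 to 2.06) and 1.77 (1.73 to 1.82). On the log2(RPKM + 1) scale the LSL-K4M difference was 0.99, just under the limit, and at this limit it was called only with a pseudocount of 0.001 RPKM among the alternatives tried. The 3 transcript rows of Prrx1 overlap in reads and gave ratios of 2.00 to 2.01 in LSL-K4M cells and 1.71 to 1.78 in Mll3/4SET.

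Promoter sequences came from RefSeq (build GRCm38.p6, 250 bases before to 50 after the start). Entries matched by symbol were examined for 7 of the 10 genes, with 2 entries for Gata2. Ly6a and Thy1 had no entry. Pdgfrb was left out of this part, so its start region was not compared with that of Pdgfra. Sequences are shown for the 3 factors with the highest ratios in LSL-K4M cells and for Pdgfra, which fell in Mll3/4SET. In LSL-K4M cells, where the factors were picked, Pdgfra was within 1.09-fold. In Mll3/4SET the factors had ratios of 3.35 (Gata2), 1.84 (Twist2) and 1.77 (Prrx1), the last 2 under the limit. Whether the start regions bear on these differences was not tested. Capitals mark matches to CANNTG, the E-box core bound by Twist and other basic helix-loop-helix factors, and to GATA on either strand (TATC on the other one); no match of one overlapped a match of the other. The Gata2 entry shown is the one with an E-box match, and which entry the counted transcript starts from was not examined.
Twist2, chr1:91801211-91801510, plus strand: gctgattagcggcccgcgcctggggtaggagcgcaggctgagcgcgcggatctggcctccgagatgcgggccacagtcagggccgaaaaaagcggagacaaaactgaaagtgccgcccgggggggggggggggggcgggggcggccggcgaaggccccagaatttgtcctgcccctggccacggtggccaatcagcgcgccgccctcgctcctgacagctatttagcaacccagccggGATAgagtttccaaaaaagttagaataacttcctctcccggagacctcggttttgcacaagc
Gata2, chr6:88198414-88198713, plus strand: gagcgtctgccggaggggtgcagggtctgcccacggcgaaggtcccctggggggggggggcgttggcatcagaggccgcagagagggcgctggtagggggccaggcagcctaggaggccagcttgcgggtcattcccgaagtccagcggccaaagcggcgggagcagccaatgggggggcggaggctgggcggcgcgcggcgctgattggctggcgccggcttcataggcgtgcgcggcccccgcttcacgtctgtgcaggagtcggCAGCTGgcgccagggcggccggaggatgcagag
Prrx1, chr1:163313601-163313900, minus strand: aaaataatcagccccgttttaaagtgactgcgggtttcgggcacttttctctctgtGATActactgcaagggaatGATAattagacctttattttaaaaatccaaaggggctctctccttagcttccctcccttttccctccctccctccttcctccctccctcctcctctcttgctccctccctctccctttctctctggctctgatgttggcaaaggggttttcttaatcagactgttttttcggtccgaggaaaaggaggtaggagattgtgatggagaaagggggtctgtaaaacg
Pdgfra, chr5:75152001-75152300, plus strand: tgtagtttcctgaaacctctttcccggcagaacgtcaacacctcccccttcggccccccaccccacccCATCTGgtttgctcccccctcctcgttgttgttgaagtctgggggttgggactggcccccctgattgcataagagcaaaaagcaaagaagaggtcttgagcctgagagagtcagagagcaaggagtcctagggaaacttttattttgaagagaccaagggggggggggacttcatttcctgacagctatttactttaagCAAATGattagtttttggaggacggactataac

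The start regions of the factors were not of 1 kind. Twist2 held 25 CG dinucleotides, Twist1 27, Gata3 22 and the Gata2 entries 32 and 29, against a median of 7 over all 32851 promoters of the table. Prrx1 held 6, Pdgfra 5 and Cd34 7. The Prrx1 start region was thus near the median, and those of the other 4 factors were above it. CANNTG was found in 72.3% of all promoters. Pdgfra held 2 matches, Gata3 and 1 Gata2 entry held 1 each, and the Twist2, Twist1, Prrx1 and Cd34 windows held none. GATA on either strand was found in 57.9% of all promoters, with 2 matches in Prrx1 and in Cd34, 1 in Twist2 and Gata3, and none in Gata2, Twist1 and Pdgfra.

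**Figure D2:**
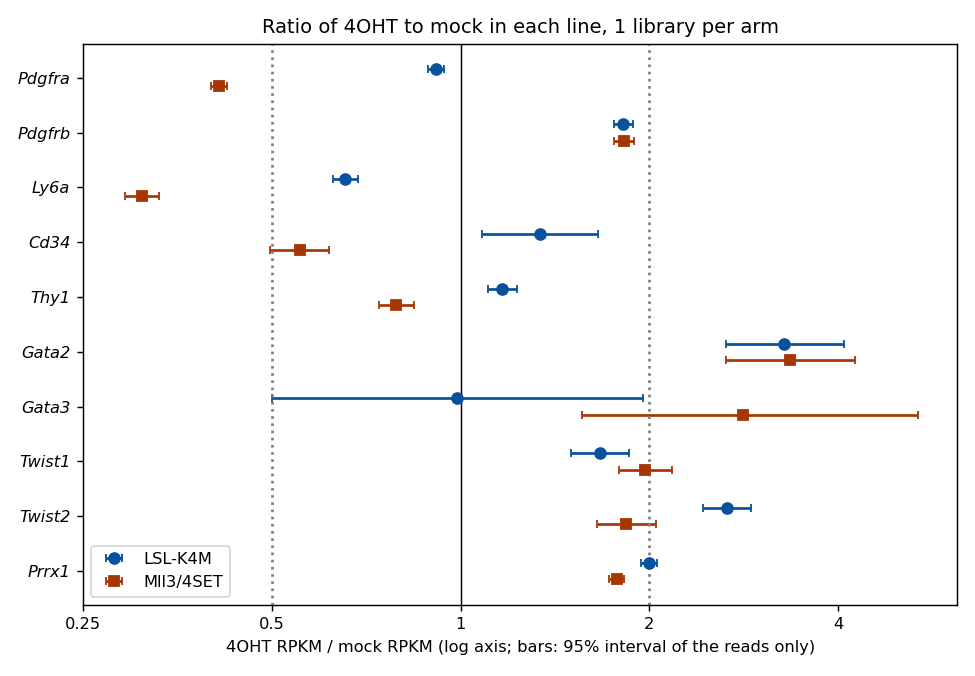
Ratio of the 4OHT to the mock RPKM of each gene (horizontal log axis) in LSL-K4M (circles) and Mll3/4SET (squares), with bars for the 95% interval of the reads and dotted lines at 2-fold. The lines share the ratios of Pdgfrb and Gata2, and their intervals do not overlap for Pdgfra, Ly6a, Cd34, Thy1, Twist2 and Prrx1; Gata3 has few reads and wide intervals.

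The 2 PDGF receptors did not move together. Pdgfra, the receptor used to mark adipocyte progenitors, was at 66.6 RPKM in the LSL-K4M mock library and 60.8 with 4OHT, and at 108.6 and 44.7 RPKM in Mll3/4SET. It fell 2.43-fold (2.36 to 2.50) in Mll3/4SET, while in LSL-K4M the levels were within 1.09-fold (1.06 to 1.13). Pdgfrb, the receptor of mural cells and fibroblasts, was at 40.8 and 74.3 RPKM in LSL-K4M cells and at 36.8 and 67.1 RPKM in Mll3/4SET. Its ratio was 1.82 in each line (1.76 to 1.88 and 1.76 to 1.89), under the limit in both.

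The order of the receptors turned over in both lines. Pdgfra was at 1.63 times (1.57 to 1.69) the level of Pdgfrb in LSL-K4M mock and 2.95 times (2.85 to 3.05) in Mll3/4SET mock. With 4OHT it was at 0.819 times (0.795 to 0.843) and 0.666 times (0.644 to 0.688) the level of Pdgfrb. The RPKM of the 2 receptors in a library share that library's depth, so this ratio does not depend on how the libraries were scaled.

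Ly6a, which encodes the glycolipid-anchored antigen Sca-1, was the most abundant of the 10 genes in 3 of the 4 libraries. It was at 251.2 RPKM in the LSL-K4M mock library and 164.4 with 4OHT, and at 235.2 and 73.0 RPKM in Mll3/4SET. The mock libraries were close to each other, and both 4OHT libraries were lower. It fell 3.22-fold (3.03 to 3.43) in Mll3/4SET and was 1.53-fold lower (1.46 to 1.60) in LSL-K4M, under the limit. Closely related Ly6 genes lie beside it, and how the authors' counting treated reads shared between them is unknown.

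Thy1 encodes CD90, another glycolipid-anchored protein of fibroblasts. It was at 68.9 and 80.4 RPKM in LSL-K4M cells and at 59.1 and 46.7 RPKM in Mll3/4SET, with ratios of 1.17 (1.11 to 1.23) and 0.790 (0.742 to 0.842). The 4OHT library was the higher one in LSL-K4M cells and the lower one in Mll3/4SET. Ly6a was at 3.64 (3.47 to 3.83) and 3.98 times (3.78 to 4.19) the level of Thy1 in the mock libraries and at 2.04 (1.95 to 2.15) and 1.56 times (1.45 to 1.68) with 4OHT.

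Cd34, the sialomucin of progenitor, endothelial and blood stem cells, was at 2.86 RPKM in the LSL-K4M mock library and 3.83 with 4OHT, and at 17.4 and 9.66 RPKM in Mll3/4SET. Both Mll3/4SET libraries were above both LSL-K4M libraries. The ratios were 1.34 (1.08 to 1.66) in LSL-K4M, on 152 and 217 reads, and 0.554 (0.497 to 0.617) in Mll3/4SET, on 957 and 516 reads.

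On the log2 scale the Mll3/4SET difference lay below that of LSL-K4M by 2-fold or more for 3 of 9 measured members, Pdgfra (-1.13), Cd34 (-1.11) and Ly6a (-1.07), against 3.09% of the 11830 genes measured in both lines. It lay above by as much for no member, against 0.609% of genes. The levels behind these 3 gaps were unlike. In Mll3/4SET mock, Pdgfra was 1.63-fold and Cd34 6.10-fold higher than in LSL-K4M mock, and Ly6a 1.07-fold lower. With 4OHT, Ly6a was 2.25-fold (2.11 to 2.40) and Pdgfra 1.36-fold (1.32 to 1.41) lower in Mll3/4SET than in LSL-K4M. Cd34 was still 2.52-fold higher (2.15 to 2.97) there with 4OHT. As a quotient of RPKM ratios, Mll3/4SET over LSL-K4M, the values were 0.451 (0.432 to 0.469) for Pdgfra, 0.414 (0.328 to 0.522) for Cd34, 0.474 (0.439 to 0.512) for Ly6a and 0.678 (0.625 to 0.735) for Thy1. For Pdgfrb the quotient was 1.00 (0.952 to 1.05) and for Gata2 1.02 (0.748 to 1.39), so counting error alone covers their gap. Twist2 had a quotient of 0.691 (0.601 to 0.793), close to that of Thy1, Prrx1 of 0.887 (0.852 to 0.923) and Twist1 of 1.18 (1.03 to 1.36). For Gata3, on few reads and below 1 RPKM, it was 2.86 (1.22 to 6.69). These intervals hold counting error only, and whether the lines differ beyond the spread of cultures was not tested. Adipocyte markers were also lower in Mll3/4SET than in LSL-K4M with 4OHT (medians of 8 genes, -5.33 and -1.95 on the log2 scale), and their part in the gap was not tested.

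**Figure D3:**
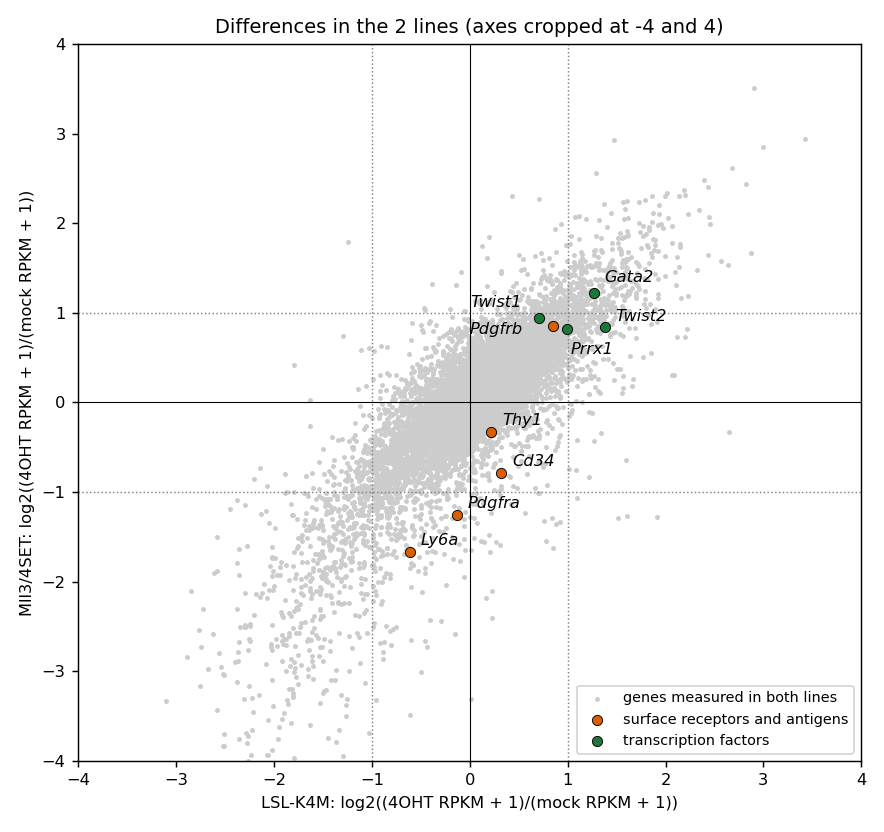
Log2 difference of 4OHT to mock in LSL-K4M (horizontal) against Mll3/4SET (vertical) for genes measured in both lines (grey), with the surface genes in orange and the transcription factors in green; dotted lines mark 2-fold and points beyond 4 are cropped. The factors and Pdgfrb lie to the upper right. Pdgfra, Cd34, Ly6a and Thy1 lie below the diagonal, as do Twist2, Prrx1 and, by little, Gata2.

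The mock libraries of the 2 lines already differed in Cd34. It was 6.10-fold higher (5.14 to 7.29) in Mll3/4SET mock than in LSL-K4M mock, and it was the 1 member of 9 called between them. Of 12027 genes, 1.82% were called higher and 3.18% lower in Mll3/4SET mock, 5% in all. The other measured members lay between 1.35-fold lower (Twist2, 1.20 to 1.52) and 1.63-fold higher (Pdgfra, 1.59 to 1.67) in Mll3/4SET mock. The order of levels was alike in the mock libraries, with Ly6a first, Pdgfra, Thy1 and Prrx1 next at 59.1 to 108.6 RPKM, then Pdgfrb, and Gata2 and Gata3 last. Twist1 and Twist2 did not differ in Mll3/4SET mock beyond counting error. With 4OHT the order was Ly6a, Prrx1, Thy1, Pdgfrb, Twist2, Pdgfra in LSL-K4M cells and Prrx1, Ly6a, Pdgfrb, Thy1, Pdgfra, Twist1 in Mll3/4SET. In the latter Thy1 and Pdgfra were at 46.7 and 44.7 RPKM.

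PDGF ligands were weakly expressed next to their receptors. For this and the later lists, the shares of all measured genes called higher were 5.26% in LSL-K4M and 5.18% in Mll3/4SET. Those called lower were 6.19% and 7.41%. Of 3 measured ligand genes (Pdgfb stayed below 1 RPKM), 1 rose in LSL-K4M cells and 2 rose in Mll3/4SET, and none fell. Pdgfa, which binds the alpha receptor, was at 3.56 and 9.93 RPKM in LSL-K4M cells and at 4.51 and 11.6 RPKM in Mll3/4SET, 2.79-fold (2.15 to 3.65) and 2.57-fold (2.03 to 3.26) higher. Pdgfc, another ligand of the alpha receptor, was at 2.24 and 3.55 RPKM in LSL-K4M cells and rose 2.85-fold (2.44 to 3.35) in Mll3/4SET. The beta receptor ligand gene Pdgfd was at 1.78 and 2.95 RPKM in LSL-K4M cells and at 5.46 and 3.73 RPKM in Mll3/4SET. None of 11 adaptors and effectors of the receptors was called in either line (medians 0.24 and 0.25). Calls in either direction made up 11.5% and 12.6% of all measured genes, so with 11 genes this is a description only. The kinase gene Src had a ratio of 2.00 (1.83 to 2.18) in LSL-K4M cells, and Pik3r1, a subunit of PI3 kinase, one of 0.556 (0.535 to 0.577) in Mll3/4SET.

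Other surface markers of progenitors and stromal cells were mostly higher with 4OHT. Of 12 measured in LSL-K4M 7 rose and 1 fell, with a median of 1.11, and of 13 measured in Mll3/4SET 6 rose and 2 fell, with a median of 0.74. Cd55, a complement regulator found on multipotent stromal progenitors, rose 9.27-fold (7.16 to 12.2) and 4.90-fold (4.18 to 5.78). Cd44, the hyaluronan receptor, rose 2.77-fold (2.64 to 2.91) and 3.01-fold (2.87 to 3.16), and F3, tissue factor, rose 2.57-fold (2.48 to 2.67) in LSL-K4M. Alcam, an adhesion molecule, fell in both lines, from 13.3 to 4.52 RPKM in LSL-K4M cells and from 57.6 to 3.22 RPKM in Mll3/4SET, 17.9-fold (16.0 to 20.0) in the latter. Dlk1, the preadipocyte marker known as Pref-1, was named for its role after its values were seen. It rose from 10.3 to 26.2 RPKM in LSL-K4M cells and was at 7.79 and 11.0 RPKM in Mll3/4SET. Dpp4, Pi16 and Lepr, which mark progenitor subsets in tissue, stayed below 1 RPKM in all 4 libraries.

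The Ly6 genes other than Ly6a were also lower. In LSL-K4M 2 of 4 measured ones fell and in Mll3/4SET all 3 measured ones did, with medians of -0.98 and -1.67. Ly6e, a widely expressed member of the family, was at 231.2 and 109.0 RPKM in LSL-K4M cells and at 166.3 and 76.1 RPKM in Mll3/4SET, a fall of 2.12-fold (2.05 to 2.20) and 2.19-fold (2.09 to 2.28). Ly6c1 was at 35.1 and 18.6 RPKM in LSL-K4M cells and fell 8.69-fold (6.91 to 11.1) in Mll3/4SET. Ly6i fell 5.61-fold (3.33 to 10.0) in Mll3/4SET on 98 and 17 reads, and Ly6h had 41 and 4 reads in LSL-K4M. Ly6a, Ly6c1 and Ly6i are close relatives, and whether reads were shared between them was not tested.

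Partners and relatives of the factors held no calls, against 11.5% (LSL-K4M) and 12.6% (Mll3/4SET) of all measured genes. With 4 and 7 measured genes, this is near that share and a description only. None of 4 measured GATA factors and cofactors was called in either line (medians 0.44 and 0.37); the GATA cofactor gene Zfpm1 had ratios of 1.98 (1.73 to 2.26) and 1.57 (1.37 to 1.80), and Trps1, an atypical GATA repressor, was at 4.60 and 2.33 RPKM in LSL-K4M cells and 4.22 and 2.32 in Mll3/4SET. None of 7 measured Twist partners, Id factors and other basic helix-loop-helix genes was called (medians 0.41 and 0.51). The E protein gene Tcf3, whose product pairs with Twist, was at 18.3 and 29.7 RPKM in LSL-K4M cells and at 18.7 and 29.9 RPKM in Mll3/4SET. Tcf4, another E protein gene, had ratios of 1.51 (1.43 to 1.60) and 1.81 (1.72 to 1.90). Id1, an inhibitor of such pairs, was at 17.3 and 18.0 RPKM in LSL-K4M cells and at 9.47 and 4.71 RPKM in Mll3/4SET.

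Among 15 measured mesenchymal transcription factors 2 rose in each line and none fell, with medians of 0.43 and 0.29. Osr1, a zinc finger factor of connective tissue, rose 2.92-fold (2.57 to 3.33) and 3.01-fold (2.70 to 3.37). Six2 rose 2.62-fold (2.14 to 3.21) in LSL-K4M cells, and Tbx15, a T-box factor of adipose depots, rose 2.04-fold (1.94 to 2.16) in Mll3/4SET, at the limit (log2 difference 1.00). Prrx2, named after its values were seen because it is the paralogue of Prrx1, was at 15.1 and 26.4 RPKM in LSL-K4M cells and at 12.5 and 7.40 RPKM in Mll3/4SET, with ratios of 1.75 (1.54 to 1.99) and 0.590 (0.489 to 0.711).

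Regulators of preadipocyte commitment went both ways. Of 9 measured genes 2 rose and 2 fell in LSL-K4M cells and 3 fell in Mll3/4SET, with medians of 0.49 and 0.25. Zfp423, a zinc finger factor that marks committed preadipocytes, fell 3.82-fold (3.28 to 4.46) and 5.42-fold (4.26 to 6.98). Zfp521, its relative that opposes it in mouse cells, rose 3.17-fold (2.88 to 3.48) in LSL-K4M cells and had a ratio of 2.03 (1.87 to 2.22) in Mll3/4SET, under the limit of the log scale. Foxo1 fell 2.30-fold (2.10 to 2.51) and 2.28-fold (2.09 to 2.50). Wisp2, a secreted protein of preadipocytes, rose 2.16-fold (2.03 to 2.30) in LSL-K4M cells and fell 2.25-fold (1.95 to 2.61) in Mll3/4SET.

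**Figure D4:**
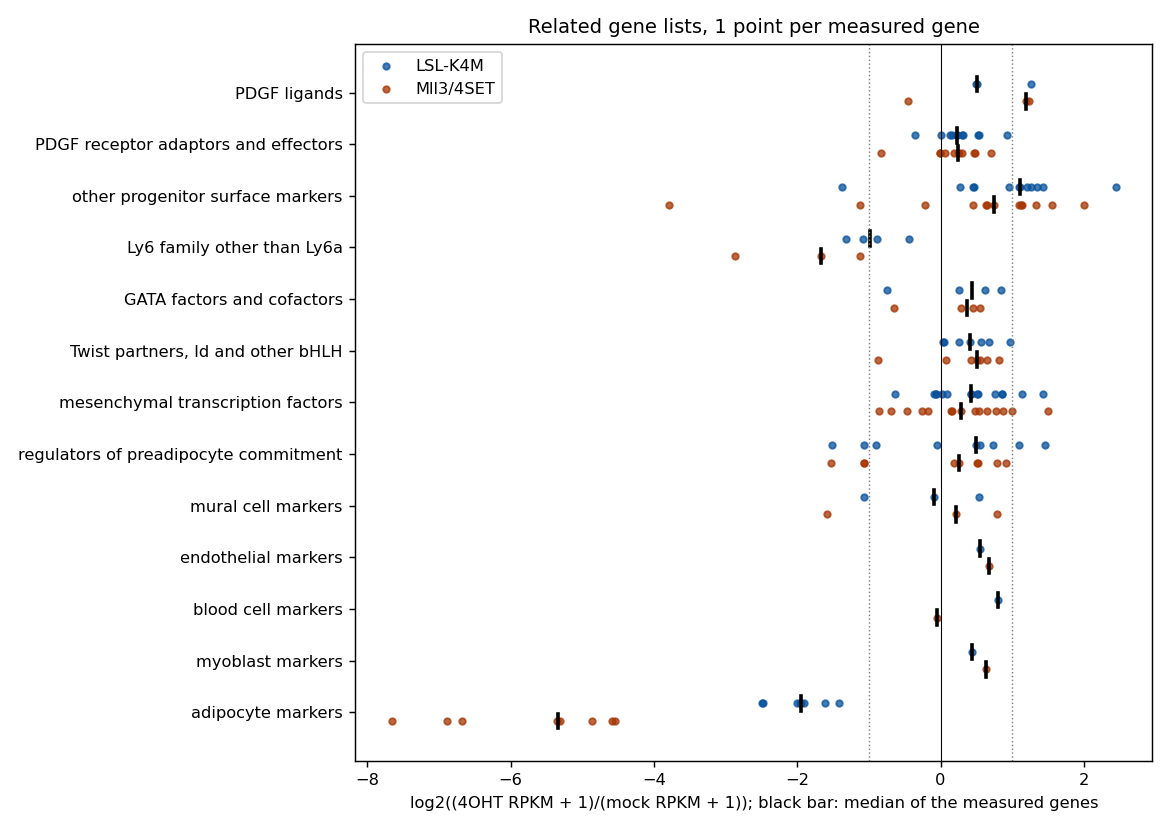
Log2 difference of 4OHT to mock (horizontal) for each measured gene of the related lists, with LSL-K4M above and Mll3/4SET below in each row; black bars are medians and dotted lines mark 2-fold. Progenitor surface markers lie mostly to the right, Ly6 genes and adipocyte markers to the left.

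Several members also mark other cell types. Endothelial, blood cell and myoblast markers were scarce, and mural cell markers were scarce in part, with 3 of 7 at 1 RPKM or more. Of 9 endothelial markers Tek alone reached 1 RPKM (103 and 210 reads in LSL-K4M, 316 and 549 in Mll3/4SET), 3 of them (Cdh5, Tie1 and Emcn) had 0 reads in all 4 libraries, and the summed level ran from 1.80 to 5.55 RPKM. Both Tek and Cd34 were higher in Mll3/4SET mock than in LSL-K4M mock. Kdr went the other way, with 77 reads in LSL-K4M mock and 12 in Mll3/4SET mock, as did Vwf with 11 and 5. Pecam1 had 2 reads in each LSL-K4M library and none in Mll3/4SET. Of 8 blood cell markers found in the tables Cd68 alone reached 1 RPKM, Cd3e and Tal1 had 0 reads throughout, and the sum ran from 1.16 to 1.98 RPKM. Of 6 myoblast markers 5 had 0 reads throughout and Pax3 was at 1.70 to 3.17 RPKM. Mural cell markers, which bear on Pdgfrb, reached 1 RPKM for 3 of 7 genes, with sums of 50.3 and 44.0 RPKM in LSL-K4M cells and 34.9 and 32.6 RPKM in Mll3/4SET. Of these, Mcam fell 2.23-fold (2.02 to 2.47) and 3.45-fold (3.02 to 3.94), Cspg4 was at 19.0 and 17.8 RPKM and at 9.97 and 17.9 RPKM, and Notch3 was at 11.3 and 16.9 RPKM and at 8.13 and 9.58 RPKM. Rgs5, Kcnj8, Abcc9 and Des stayed below 1 RPKM. All 8 adipocyte markers fell in each line; Fabp4 was at 4099 and 1066 RPKM in LSL-K4M cells and at 5119 and 24.3 RPKM in Mll3/4SET.

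For each member called in either line, the 3 genes with the most similar profile over the 4 libraries were found among 8737 genes at 5 RPKM or more in 1 library, by Euclidean distance of centred log2(RPKM + 1) values. Gata2 lay closest to Actg1 (distance 0.05), Homer3 and Ndn. Actg1 was at 329.5 and 802.8 RPKM in LSL-K4M cells and at 302.1 and 719.4 RPKM in Mll3/4SET. Twist2 lay closest to Mamdc2 (0.05), Cyth3 and Myh9, Pdgfra to Pnrc1 (0.15), C1s and Gdf15, and Ly6a to Baiap2 (0.13), C1qtnf5 and H2-K2. The 1 RPKM added before the log shrinks differences of low genes, here Gata2 (1.60 and 1.32 RPKM in the mock libraries) and Mamdc2 (1.93 and 1.25). The small distances of Gata2 to Actg1 and of Twist2 to Mamdc2 rest in part on that. With 4 values per gene, such neighbours are a description of these libraries.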

How the data were processed

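RNA-seq of 4 libraries, 1 per line and treatment, was used; the 6 ChIP-seq and input libraries were not analysed here. Trizol extraction and bead selection of mRNA are given per the labels' protocols. Per the file headers, the authors deposited for each RefSeq transcript the read count and the RPKM, which they scaled to transcript length and library size. The submitters' processing notes name mm9 and SICER; aligner, counter and use of strand are not given in the sources used here, so overlapping and antisense genes cannot be told apart. No column of another series was left unused (0 columns).

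From the deposited RPKM, log2((4OHT + 1)/(mock + 1)) was computed within each table, with Python 3.11.15, numpy 2.4.6, scipy 1.17.1 and pandas 2.3.3. Intervals of ratios are exact conditional binomial intervals of the deposited counts, corrected for RPKM per read; quotients between the lines use the 4 counts on the log scale. The reads carry no molecular identifiers, so intervals cover counting error only. Groups come from the treatment and genotype labels. Calls and intervals were tried on simulated counts that held counting error only, which cannot show the spread of cultures.

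The members and the 13 lists of related genes were chosen with earlier results of these data known. Named are all members, up to 4 genes per list with the largest difference in either line, and the 3 nearest genes of each called member; Dlk1, Prrx2, Ddit3, Runx1, Zeb2 and genes named for being low or undetected lie outside this rule. Alternatives were pseudocounts, filters, scaling, choice of transcript row and a 1.5-fold limit.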

Additional observations from a re-analysis of the deposited data

Results flagged for a closer look

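Of the members and all measured genes of the related lists, some were higher with 4OHT in one line and lower in the other, with the intervals of the reads excluding no difference in both. The difference between the lines was not tested, since each group holds 1 library. Among the progenitor markers these were Cd34, with a log2 difference of 0.32 for LSL-K4M against -0.79 for Mll3/4SET, and Thy1, with 0.22 and -0.33. Among related genes, Wisp2 had log2 differences of 1.09 and -1.07, Prrx2 of 0.77 and -0.69, Pdgfd of 0.51 and -0.45, and Cspg4 of -0.088 and 0.78. Ddit3 had log2 differences of -0.90 and 0.19, Runx1 of 0.43 and -0.17, and Zeb2 of -0.096 and 0.17. Under median-ratio scaling the measured members' log2 differences were lower by 0.081 to 0.10 in LSL-K4M cells and by 0.10 to 0.12 in Mll3/4SET, and Cd34 and Thy1 kept their opposite directions. The related genes were not recomputed under this scaling. Its factor of 1.09 in Mll3/4SET lies within the interval of Ddit3 there (1.08 to 1.22) and at the lower bound of that of Zeb2 (1.09 to 1.16).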

How the results depend on the processing

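No measured progenitor marker changed the direction of its difference under any pseudocount, filter, scaling or choice of transcript row tried. A pseudocount or a filter cannot turn a direction. Only scaling, and the choice of row for members with several rows, could have done so. Of 126 recomputed values of single members 105 stayed within the interval of the reads. Some of these could not move, since lifting the filter leaves a measured value unchanged and members with 1 row have no other row. The 21 values beyond the interval came from scaling and, for Gata2, from the pseudocount. With a limit of 1.5-fold in place of 2-fold, 5 members were higher and 1 (Ly6a) lower in LSL-K4M, 5 were higher and 3 lower in Mll3/4SET, and 2 differed between the mock libraries. With a filter at 5 RPKM none was called higher in Mll3/4SET (0), since Gata2 was below it. With a pseudocount of 0.001 Prrx1 joined Gata2 and Twist2 as higher in LSL-K4M. Over all genes, pseudocounts of 0.1 and 0.001 gave 1018 and 1075 higher calls in LSL-K4M, against 641, and 1013 and 1083 in Mll3/4SET, against 631; the 1.5-fold limit gave 1945 higher and 1583 lower, and 1961 and 1584. The count of 3 members with a lower difference in Mll3/4SET than in LSL-K4M, whose alternatives were chosen after seeing the data, became 2 with the filter at 5 RPKM and stayed at 3 otherwise. No paired analysis was possible because each group holds 1 library, and leaving out a replicate leaves no group. Depth limits Gata3, with 16 to 44 reads per library.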
